A study of Rattus norvegicus with 12 samples.

Results

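The genes described here encode the core of the cyclic AMP pathway, from the enzymes that make cyclic AMP to the kinase that reads it and a scaffold that holds the kinase in place. They are the adenylyl cyclase genes Adcy3, Adcy6 and Adcy8, the protein kinase A (PKA) regulatory subunit genes Prkar1a, Prkar1b, Prkar2a and Prkar2b, the catalytic subunit genes Prkaca and Prkacb, and the A-kinase anchoring protein gene Akap5. Members were chosen by gene name, and all probes that carry one of these 10 names were taken, which gave 16 of the 41012 distinct probes on the array, printed as 25 spots. Of the 10 genes, 9 passed the filter on dim probes, with 12 of the 16 probes, among 17632 genes that were tested.

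The cells were F11, an established cell line that arose from a fusion of dorsal root ganglion neurons of the rat with a mouse neuroblastoma and that serves as a stand-in for sensory neurons. The forskolin samples had 3 h in low serum (0.5% fetal calf serum) followed by 10 µM forskolin for 2, 4, 24 or 48 h, with 3 arrays per time point and 12 in all. Every array paired such RNA, in green (Cy3), with a common reference, in red (Cy5), taken from F11 cells that had the 3 h of low serum and no forskolin. The arrays carry rat probes, and how far mouse transcripts of the hybrid bound them was not tested. No array (0) held untreated cells of matched culture time, so time in culture and forskolin cannot be told apart. Since the dyes were never swapped, a probe's own dye bias remains in a change against the reference but drops out of a difference between time points. The reference stands for 1 control sample, so the spread among control cultures is missing, and nothing in the labels says that replicates were separate cultures, so p-values measure the spread between these arrays, which may be technical. Each time point also lay at its own position on the slides, so position and time cannot be told apart. Per array, the scanner rated 19889 to 21973 of 43379 non-control spots as well above background in green and 19504 to 23285 in red, and the number of arrays limits the precision. Of 14 sensory neuron and neuronal marker genes, 10 were well above background on all 12 arrays, among them Prph, Tubb3 and Isl1, while Isl2 was on none. The same count was 2 of 6 glial markers (with S100b and Gfap on no array), 2 of 5 fibroblast markers (Col1a1 and Col1a2), 1 of 4 leukocyte markers (Cd68) and 1 of 4 endothelial markers (Kdr).

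Forskolin is a plant diterpene that binds membrane adenylyl cyclases directly and raises cyclic AMP. In the resting cell a pair of PKA regulatory subunits holds a pair of catalytic subunits inactive. Cyclic AMP binds the regulatory subunits and frees the catalytic ones, while A-kinase anchoring proteins fix the holoenzyme near its substrates. In sensory neurons this pathway is known for sensitising nociceptors and for promoting axon growth after injury.

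The probes decide what is measured here, and some of them are shown first. Where a coding or functional stretch is named, this is a reading of the probe's sequence and was not tested. Prkar1a had 2 probes, both within its coding sequence, and both are shown because their values differed in size. The Prkaca probe lies at the activation loop, with the codons of the Asp-Phe-Gly motif in capitals. The Akap5 probe lies in the stretch that encodes the amphipathic helix by which the protein holds the regulatory subunits of type II PKA. Each sequence is printed from its first base as the files give it.
Prkar1a, probe A_44_P399992: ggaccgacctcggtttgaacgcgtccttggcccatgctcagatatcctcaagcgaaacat
Prkar1a, probe A_44_P301695: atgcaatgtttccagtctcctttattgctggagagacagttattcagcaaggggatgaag
Prkar2b, probe A_44_P116634: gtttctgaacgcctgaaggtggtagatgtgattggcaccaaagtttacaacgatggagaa
Prkaca, probe A_44_P330332: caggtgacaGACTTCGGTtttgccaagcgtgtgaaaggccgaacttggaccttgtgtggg
Akap5, probe A_44_P238424: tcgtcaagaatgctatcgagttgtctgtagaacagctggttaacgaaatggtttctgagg
In the files' coordinates (build rn3) these probes lie, in the same order, at chrX:148715863-148715922, chrX:148716461-148716520, chr6:50244176-50244235, chr19:25852087-25852229 and chr6:98931843-98931902. The Prkaca position covers 143 bases for a probe of 60, so its bases fall in more than 1 block of the genome. The files put both Prkar1a probes on chromosome X, whereas RefSeq places Prkar1a on chromosome 10 of the GRCr8 assembly. Both were named through the transcript accession in the files, and whether a copy of the sequence elsewhere adds to their signal was not tested.

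Against the reference, 3 of the 9 tested members changed at 2 h, as did 3 members at 4 h, 5 members at 24 h and 8 members at 48 h (limma, Benjamini-Hochberg adjusted p under 0.05 over all 17632 genes). Over all tested genes the called share was 28.6%, 50.1%, 53.9% and 57.7% in the order of time. At 4 h the members' count was below that share with this processing, but 5 of 9 were called without background correction and from processed signals, beside 9551 and 9037 of the 17632 genes. At 48 h it was above it, and without replicate 1 at 48 h it was 5 of 9, beside 9193 genes. Prkar1a was the called rise at 2 and 4 h, with a sign that median centring turns, and Prkacb and Akap5 were the called falls. Adcy6 joined the rises and Prkar2b the falls at 24 h, and Adcy3, Prkar1b and Prkar2a joined at 48 h. Of these, Adcy3 had passed the filter only through the forskolin channel at 48 h, where it was then called. By direction, 1 member was higher and 2 were lower at 2 h, where 10.1% of all genes were higher and 18.5% lower, and 1 and 2 at 4 h, where these shares were 19.7% and 30.4%. At 24 h 2 were higher and 3 lower, beside 24.4% and 29.5% of all genes, and at 48 h 4 were higher and 4 lower, beside 27.1% and 30.6%. Relative to the median of all genes after each array was only centred on its median, without loess, the members' counts were 4 higher and 3 lower at both early time points, 5 and 3 at 24 h and 5 and 4 at the last. Under that scaling 13525, 13720, 12886 and 13226 of the 17632 genes were called, so the members' 7, 7, 8 and 9 of 9 stand beside a high background. The median change of the 9 members was -0.02, 0.01, -0.09 and -0.08 at the 4 time points, and that of all genes was -0.02, -0.04, -0.02 and -0.02 (log2). Their median absolute change was 0.08, 0.07, 0.32 and 0.22, beside 0.09, 0.14, 0.15 and 0.17 for all genes. Every change here is a log2 ratio (forskolin over reference), and each mean stands with the SD of its 3 arrays, and in bulk RNA fewer expressing cells and less RNA per cell cannot be told apart.

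**Figure D1:**
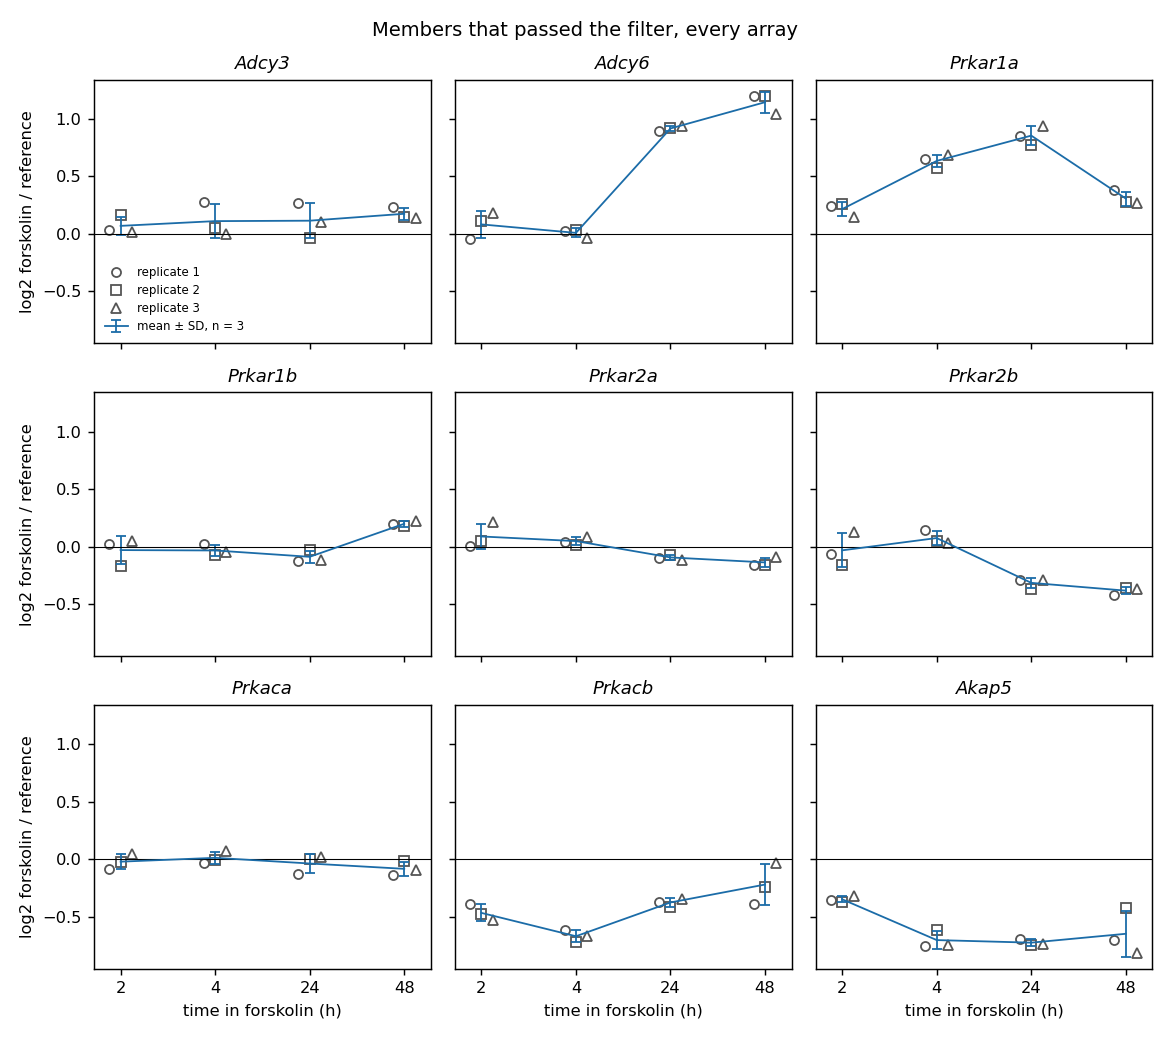
Log2 ratio of forskolin over reference for the 9 members that passed the filter, with time in forskolin (h, evenly spaced) on the horizontal axis; open symbols are single arrays and the line gives the mean ± SD of 3 arrays. Adcy6 stood near 0 at 2 and 4 h and reached 1.15 at 48 h, Prkar1a reached 0.86 at 24 h (its sign against the reference turns with median centring), and Akap5 and Prkacb lay below 0 on every array.

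Among the cyclase genes, Adcy6 rose late, and its time means spanned 1.14, more than those of the other 8 tested members with this processing. Adcy6 encodes a cyclase that calcium inhibits and that PKA itself is known to phosphorylate and restrain. At 2 h the 3 arrays gave -0.04, 0.11 and 0.18, and at 4 h 0.03, 0.04 and -0.04. These arrays lie on both sides of 0 and neither time point was called (adjusted p = 0.21 and 0.89). At 24 h the arrays gave 0.90, 0.92 and 0.94, a mean of 0.92 ± 0.02 (1.89-fold, adjusted p = 2.0e-09 in limma). At 48 h they gave 1.20, 1.20 and 1.04, a mean of 1.15 ± 0.09 (2.21-fold, adjusted p = 1.3e-10 in limma). All 6 late arrays thus lie far above the 6 early ones, with no overlap. The same split stood in the channels: the normalised log2 signal of the forskolin channel averaged 9.27 at 24 h and 9.47 at 48 h, while that of the reference channel was 8.33 to 8.36 at all 4 time points. Between time points, Adcy6 was 0.91 higher at 24 h than at 4 h (adjusted p = 1.3e-07 in limma). The further difference of 0.23 between 48 and 24 h was called with all arrays (adjusted p = 0.034) and not without any 1 of the 3 arrays at 24 h or of replicates 1 and 2 at 48 h. It was also not called with a normexp offset of 0, from processed signals, without the filter, with the deposited values or after median centring, at 0.17 to 0.25. Centred on the array median, relative to all genes, the late rises were 0.60 and 0.78 and were still called.

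The Adcy6 value rests on 1 probe, A_44_P107300, on chromosome 7 from 137416793 to 137416852 (rn3), which was well above background in both channels on all 12 arrays. A second Adcy6 probe, A_43_P11576, was well above background on 1 of 12 arrays in green and on 1 in red and did not pass the filter. Its means were -0.16 ± 0.09, -0.13 ± 0.16, 0.00 ± 0.20 and 0.14 ± 0.06 over the 4 time points. It was therefore not tested and gives no second measurement of the rise.

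Adcy3, which encodes the cyclase of olfactory signalling and of neuronal cilia, stayed close to the reference with an offset of 50. The arrays of Adcy3 gave 0.03, 0.16 and 0.02 at 2 h, 0.28, 0.05 and 0.0011 at 4 h, 0.27, -0.03 and 0.10 at 24 h, and 0.24, 0.15 and 0.14 at 48 h. The 48 h mean was called, at 0.18 ± 0.05 (adjusted p = 0.026 in limma), and the call was lost without any 1 of its 3 arrays. The gene passed the filter only through its forskolin channel at 48 h. That is the group in which it was called higher, so the call carries no weight of its own. Adcy3 was dim: its forskolin channel was well above background on 7 of 12 arrays and its reference channel on 1, so the 48 h difference is a bound of at least 1.13-fold. From the scanner's processed signals, which were subtracted for background without an offset, its changes were 0.74, 1.07, 0.62 and 0.85, all called. Adcy8, which encodes a cyclase that calcium and calmodulin stimulate, was not well above background in either channel on any of the 12 arrays. Its green signal was 58.4 to 66.1 over a local background of 48 to 54.5, and its red signal 97.4 to 111 over 74 to 92, and it was not tested.

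Of the 7 other adenylyl cyclase genes, which the array all carried, 3 passed the filter. Adcy5, the closest relative of Adcy6, gave 0.45, 0.48 and 0.47 at 48 h, a mean of 0.47 ± 0.02 (adjusted p = 1.2e-07 in limma). That mean was 1.01 from processed signals, and 0.10 and not called with median centring alone. Relative to all genes after median centring it was 0.57 and was called (adjusted p = 1.2e-06 in limma). Adcy5 also stood at 0.46 ± 0.05 at 24 h and at 0.09 ± 0.03 at 2 h. Adcy9, which encodes the cyclase least sensitive to forskolin, gave -0.37, -0.49 and -0.24 at 4 h, a mean of -0.37 ± 0.12 (adjusted p = 5.8e-05 in limma), or -0.63 from processed signals. Its mean was 0.22 ± 0.09 at 48 h. Adcy7 was called at no time point, with means of 0.03 to 0.08. Of these 3 genes, 0 were higher and 1 lower at 2 h, 1 higher and 1 lower at 4 h, 1 and 0 at 24 h, and 2 and 0 at 48 h.

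Among the regulatory subunits, Prkar1a was highest at 24 h and lower again at 48 h, with a sign against the reference that median centring turns. It encodes the widely expressed type I alpha subunit, which restrains the catalytic subunits and is known to keep free kinase low. Its arrays gave 0.25, 0.26 and 0.14 at 2 h, 0.65, 0.57 and 0.68 at 4 h, 0.85, 0.78 and 0.94 at 24 h, and 0.38, 0.27 and 0.27 at 48 h. All 12 arrays lie above 0, and the 3 arrays at 24 h lie above all others. The means were 0.22 ± 0.06, 0.64 ± 0.06, 0.86 ± 0.08 and 0.31 ± 0.06 (adjusted p = 0.0027, 6.4e-08, 1.9e-09 and 3.7e-05 in limma). Prkar1a was 0.42 higher at 4 h than at 2 h (adjusted p = 4.0e-04 in limma) and fell by 0.55 at 48 h relative to 24 h (adjusted p = 4.8e-05). The step of 0.22 between 24 and 4 h (adjusted p = 0.012) was not called without replicate 2 at 4 h or replicate 3 at 24 h.

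The second Prkar1a probe, A_44_P301695, gave larger values, with 4 and 24 h again above 2 and 48 h. Its arrays gave 0.46, 0.51 and 0.53 at 2 h, 1.20, 1.15 and 1.33 at 4 h, 1.17, 1.13 and 1.16 at 24 h, and 0.71, 0.59 and 0.56 at 48 h. The arrays of 4 and 24 h overlap, and all of them lie above those of 2 and 48 h. With the 2 probes averaged, the step between 24 and 4 h was 0.07 and was not called (adjusted p = 0.36). The first probe is bright, with a green signal of 10032 to 18920 over a local background of 42 to 52. With each array centred only on its median, relative to all genes, the first probe's means were -0.62, -0.14, -0.02 and -0.58, so that its direction against the reference rests on the loess step, while the second probe's were 0.04, 0.74, 0.67 and 0.13. The fall between 24 and 48 h was -0.56 under that scaling and was still called (adjusted p = 0.034), and the step between 2 and 4 h was 0.48 and was not (adjusted p = 0.074).

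**Figure D2:**
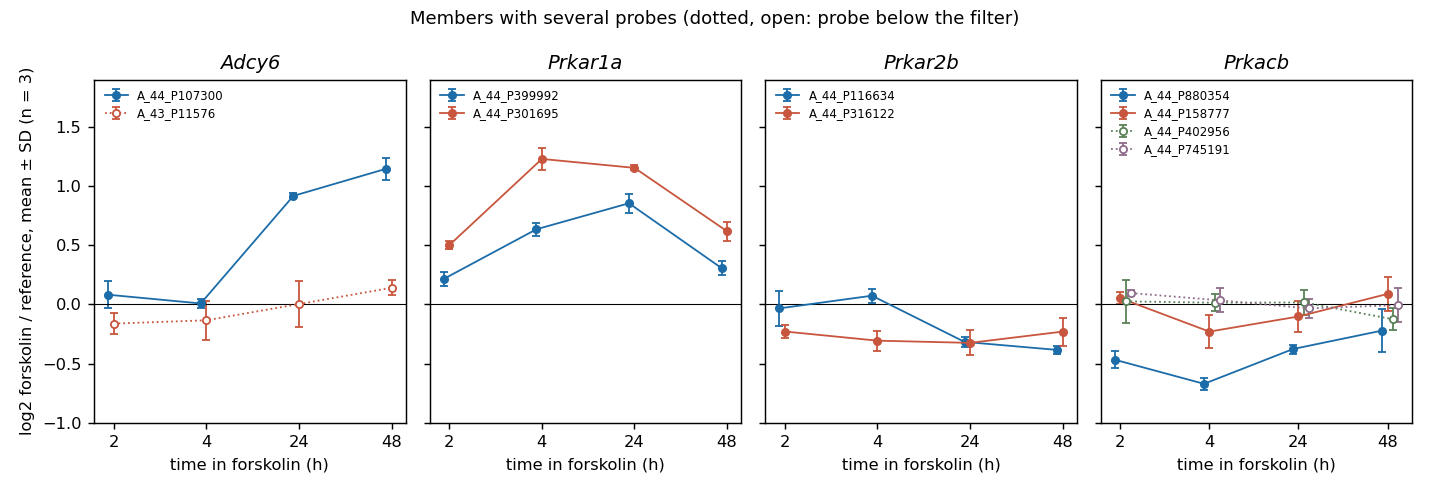
Mean ± SD (n = 3 arrays) of the log2 ratio of forskolin over reference for every probe of the 4 members with several probes, against time in forskolin (h, evenly spaced); dotted lines with open symbols are probes that did not pass the filter. The second Prkar1a probe lay above the first at all 4 time points, and of the 4 Prkacb probes A_44_P880354 alone lay well below 0 at 2 h.

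Prkar2b, which encodes the type II beta subunit found in neurons and fat, went down late. The arrays gave -0.07, -0.16 and 0.13 at 2 h and 0.14, 0.05 and 0.03 at 4 h, and neither mean was called (-0.03 ± 0.15 and 0.07 ± 0.06). They gave -0.29, -0.37 and -0.29 at 24 h and -0.42, -0.36 and -0.37 at 48 h, with all 6 late arrays below all 6 early ones. The late means were -0.32 ± 0.05 and -0.38 ± 0.03 (adjusted p = 1.1e-04 and 1.6e-05 in limma). The difference between 24 and 4 h was -0.39 (adjusted p = 5.4e-04 in limma), and -0.33 and not called relative to all genes after median centring. The second Prkar2b probe, A_44_P316122, did not show the late step: its means were -0.23 ± 0.06, -0.31 ± 0.08, -0.32 ± 0.10 and -0.23 ± 0.12, each called, and its late minus early difference was -0.01 (adjusted p = 0.90). Both probes were below the reference at 24 and 48 h. They parted at 2 and 4 h, and which of them follows the transcript was not tested.

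The other regulatory subunits moved little. Prkar1b, the neuronal type I beta subunit gene, had means of -0.03 ± 0.12, -0.03 ± 0.05 and -0.09 ± 0.05 at 2, 4 and 24 h, none of them called. At 48 h its arrays gave 0.19, 0.18 and 0.22, all above every earlier array, with a mean of 0.20 ± 0.02 (adjusted p = 0.0020 in limma). Its difference of 0.29 between 48 and 24 h was called (adjusted p = 0.0078 in limma), and after median centring it was 0.23 relative to all genes and not called. Prkar2a, the widely expressed type II alpha subunit gene, had means of 0.09 ± 0.11 and 0.05 ± 0.03 at 2 and 4 h and of -0.09 ± 0.02 at 24 h, none called. At 48 h its arrays gave -0.16, -0.16 and -0.09, a mean of -0.14 ± 0.04 (adjusted p = 0.013 in limma) that was not called without replicate 1 or replicate 2. All 6 late Prkar2a arrays lay below all 6 early ones, and the late minus early difference was -0.18 (adjusted p = 0.0024 in limma). Both genes were dim, with green signals of 71.2 to 92.6 for Prkar1b and 68.6 to 84.7 for Prkar2a over local backgrounds of 46 to 55. From the scanner's processed signals the 48 h changes were 0.58 for Prkar1b and -0.60 for Prkar2a. Relative to all genes after median centring, Prkar2a stood at 0.23 at 48 h, so its sign against the reference also rests on the loess step.

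Of the catalytic subunit genes, Prkacb was lower from 2 h on while with this processing no change in Prkaca was called, and the difference between the genes was not tested. Prkaca, which encodes the catalytic alpha subunit, was called at no time point. Its probe was printed in 10 spots, whose averages gave -0.08, -0.03 and 0.05 at 2 h, -0.03, -0.0031 and 0.07 at 4 h, -0.13, 0.0012 and 0.02 at 24 h, and -0.14, -0.02 and -0.09 at 48 h. The arrays lie on both sides of 0 at 2, 4 and 24 h and slightly below it at 48 h. The means were -0.02 ± 0.06, 0.01 ± 0.05, -0.04 ± 0.08 and -0.08 ± 0.06 (adjusted p = 0.76, 0.84, 0.50 and 0.12 in limma). The 95% interval at 48 h was -0.18 to 0.01, which leaves room for a small fall. The probe was dim, with a green signal of 67.3 to 75.4 over 47.0 to 52.9. With a normexp offset of 0 the 48 h value was -0.27 and was called (adjusted p = 0.045). After median centring, relative to all genes, Prkaca stood at 0.49, 0.51, 0.36 and 0.32 over the 4 time points, each called, so that its place at 0 also rests on the loess step.

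Prkacb, which encodes the catalytic beta subunit, was measured on 4 probes, of which the brightest stands for the gene. Probe A_44_P880354 gave -0.39, -0.48 and -0.53 at 2 h, -0.62, -0.72 and -0.67 at 4 h, -0.37, -0.42 and -0.34 at 24 h, and -0.39, -0.24 and -0.03 at 48 h. All 12 arrays lie below 0, those at 4 h lowest and clear of all others. The means were -0.47 ± 0.07, -0.67 ± 0.05, -0.38 ± 0.04 and -0.22 ± 0.18 (adjusted p = 6.8e-05, 4.0e-07, 6.6e-05 and 0.0040 in limma). At 48 h the 3 arrays spread widely, and without replicate 1 the mean was -0.14 and was not called (adjusted p = 0.061). Prkacb was 0.29 higher at 24 h than at 4 h (adjusted p = 0.0089 in limma), which is a return towards the reference. After median centring, relative to all genes, that difference was again 0.29 and was not called (adjusted p = 0.17). The difference of -0.20 between 4 and 2 h was not called (adjusted p = 0.11), although the arrays of the 2 time points do not overlap.

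The other Prkacb probes gave less. Probe A_44_P158777 was dim and gave 0.05 ± 0.05, -0.23 ± 0.14, -0.10 ± 0.13 and 0.09 ± 0.14, of which the 4 h value was called when probes were fitted one by one (adjusted p = 0.0087 in limma over probes). None of the 4 h arrays had its green signal well above background, so this value is a bound of at least 1.15-fold lower. The probe passed the filter only through its reference channel, at 2 and 4 h. That is the channel in which it was higher at 4 h, so the call carries no weight of its own. The remaining probes, A_44_P402956 and A_44_P745191, did not pass the filter and had means of -0.12 to 0.10. With the kept probes averaged, Prkacb was -0.21 at 2 h, -0.24 at 24 h and -0.07 at 48 h, the last no longer called (adjusted p = 0.31). The fall thus has its full size on 1 probe.

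Akap5 encodes the scaffold known as AKAP150 in rodents, which ties PKA, the phosphatase calcineurin and protein kinase C to membrane channels and receptors. It was lower at every time point. The arrays gave -0.35, -0.37 and -0.32 at 2 h, -0.75, -0.61 and -0.74 at 4 h, -0.69, -0.75 and -0.74 at 24 h, and -0.70, -0.43 and -0.82 at 48 h. All 12 lie below 0, and the 2 h arrays are the nearest to it. The means were -0.35 ± 0.03, -0.70 ± 0.08, -0.73 ± 0.03 and -0.65 ± 0.20 (adjusted p = 7.8e-04, 3.9e-07, 1.8e-07 and 3.9e-07 in limma), of which the 24 h mean is a fall of 1.65-fold. Akap5 was 0.36 lower at 4 h than at 2 h (-0.36, adjusted p = 0.010 in limma), and the later steps of -0.02 and 0.08 were not called. The step between 2 and 4 h, relative to all genes after median centring, was -0.32 and was not called either. The normalised log2 signal of the forskolin channel averaged 7.13, 6.81, 6.65 and 6.69 over the 4 time points, against 7.48, 7.52, 7.38 and 7.34 in the reference channel.

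The size of the Akap5 fall depends on how background was handled. Its green signal was 73.9 to 101 over a local background of 48 to 55, while its red signal was 216 to 335 over 81 to 93, and both channels were well above background on all 12 arrays. From the scanner's processed signals the falls were -0.63, -1.76, -1.94 and -1.68, and with a normexp offset of 0 they were -0.54, -1.28, -1.41 and -1.25. Relative to all genes after median centring they were -0.29, -0.61, -0.62 and -0.55. All of these changes against the reference were called, so the direction was the same under each scaling and the size was not.

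**Figure D3:**
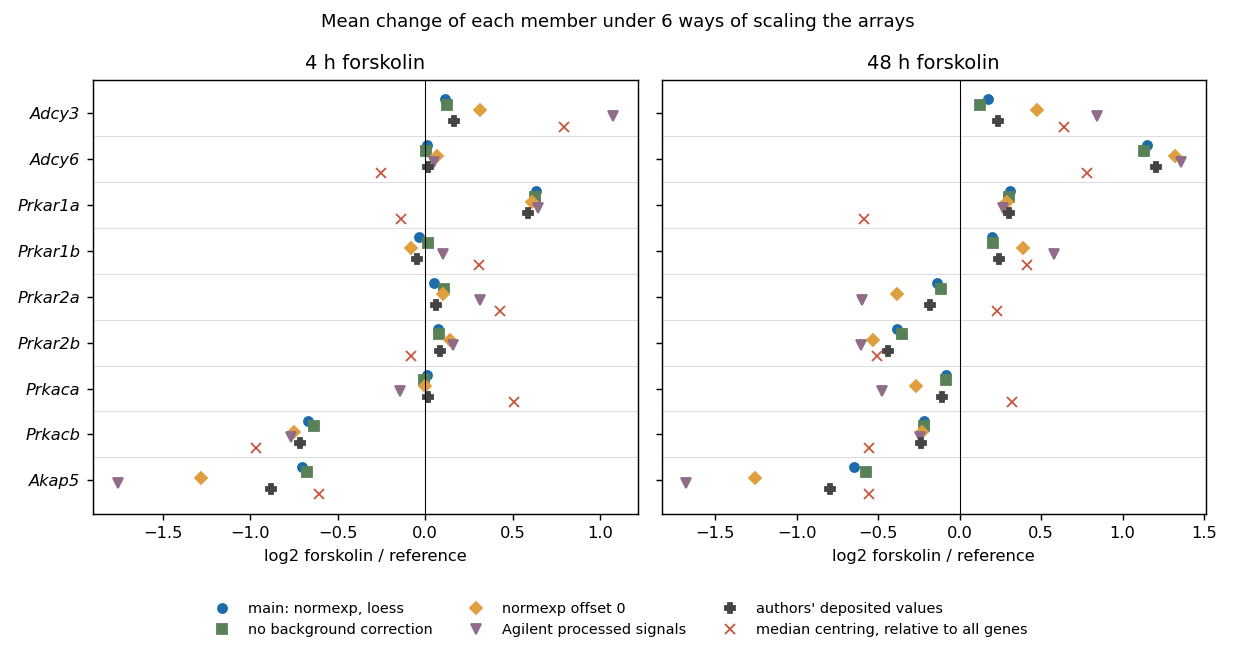
Mean log2 ratio of forskolin over reference of the 9 members at 4 h (left) and 48 h (right) under 6 ways of processing the same arrays, 1 marker for each. Akap5 stayed below 0 under all 6 while its size varied from -0.61 to -1.76 at 4 h, and Prkar1a turned from 0.64 to -0.14 at 4 h when arrays were centred on their median.

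Set side by side between time points, 2 members were called at 4 h against 2 h (1 higher and 1 lower), where 15.9% of all genes were called, 5.64% higher and 10.2% lower. For 24 h against 4 h 4 members were called (3 higher and 1 lower), where 39.1% of all genes were, 21.2% higher and 18% lower. For 48 h against 24 h 3 members were called (2 higher and 1 lower), where 15% of all genes were, 8.12% higher and 6.89% lower. For the mean of 24 and 48 h against the mean of 2 and 4 h, 6 of 9 members were called (3 higher and 3 lower), where 50.9% of all genes were, 26.4% higher and 24.4% lower. Adcy6 was higher late (0.99, adjusted p = 7.0e-10 in limma), and Prkar2b and Prkar2a were lower (-0.37 and -0.18). Prkacb was higher late, at a mean of -0.30 against -0.57 early, a difference of 0.27 (adjusted p = 0.0010 in limma). Its other kept probe, A_44_P158777, differed by 0.08 and was not called (adjusted p = 0.31 in limma over probes). The differences of Prkar1a (0.16) and Akap5 (-0.16) were small beside their changes against the reference, and the Akap5 call was lost without any 1 of 7 arrays (2 h replicates 1 and 3, 4 h replicate 2, 24 h replicates 2 and 3, and 48 h replicates 1 and 3), at -0.16 to -0.12. Prkar1a had no such difference on its second probe (0.02, adjusted p = 0.73). After median centring, relative to all genes, 3 of the 9 members were called late against early, 1 higher and 2 lower.

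**Figure D4:**
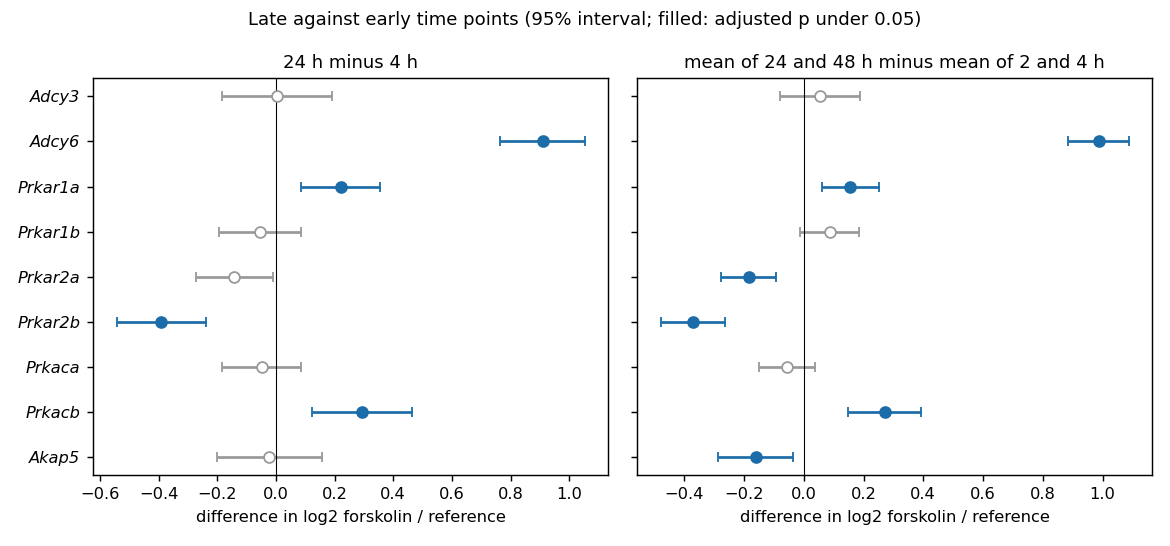
Difference in log2 forskolin over reference between 24 and 4 h (left) and between the late and the early pair of time points (right) for the 9 members, with 95% intervals from the fit; filled points had an adjusted p under 0.05. Adcy6 stood apart at 0.91 and 0.99, and no other member differed by more than 0.39.

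The genes whose 12 array values followed Adcy6 most closely were Hebp1, Stk16 and Hagh (Pearson r = 0.995 for each), among 2484 named genes whose time means spanned at least 0.5. Those nearest to Prkar1a were Lamb1 (r = 0.958), Vgf (0.955) and Osbpl6 (0.952). Lamb1, a laminin chain gene, had means of 0.07, 0.58, 0.82 and 0.23 over the 4 time points, and Vgf, which encodes a neuronal secreted peptide precursor, had 0.38, 0.74, 1.24 and 0.39. The arrays share slides and the reference RNA, and these correlations only describe likeness over 12 arrays.

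Around the members stand the G proteins that switch cyclases on or off. Of 17 G protein subunit and cofactor genes, 13 passed the filter, and 1 was higher and 3 lower at 2 h, 3 and 3 at 4 h, 7 and 2 at 24 h, and 9 and 1 at 48 h. For this and the other pathway lists, the shares of all genes called higher and lower were 10.1% and 18.5%, 19.7% and 30.4%, 24.4% and 29.5%, and 27.1% and 30.6% in the order of time. Relative to all genes after median centring, those counts were 3 and 5, 3 and 5, 4 and 4, and 5 and 4. Beside this and the other lists, 13525, 13720, 12886 and 13226 of the 17632 genes were called under that scaling in the order of time. Of those calls 50.6%, 50.2%, 49.5% and 49.1% were higher. Gnas, which encodes the alpha subunit that stimulates adenylyl cyclase, gave 0.53, 0.52 and 0.41 at 48 h (0.48 ± 0.06, adjusted p = 2.0e-06 in limma), and -0.27 under that scaling. Gnao1, the gene of the neuronal inhibitory-class alpha subunit, stood at 0.52 ± 0.09 at 48 h, and the beta subunit gene Gnb2 at 0.78 ± 0.07 at 24 h. With median centring they stood, relative to all genes, at 0.36 for Gnao1 and at 0.16 for Gnb2, the Gnb2 value not called (adjusted p = 0.15), and both were negative with centring alone.

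The genes of other anchoring proteins were called in both directions. Of 19 genes listed, 14 passed the filter, and 3 were higher and 3 lower at 2 h, 2 and 6 at 4 h, 6 and 5 at 24 h, and 7 and 4 at 48 h. Those counts, relative to all genes after median centring, were 4 and 6, 4 and 7, 5 and 5, and 4 and 6. Akap8, the gene of a nuclear anchoring protein, gave -1.25, -1.11 and -1.03 at 48 h (-1.13 ± 0.11, 2.19-fold lower, adjusted p = 1.0e-10 in limma), or -1.77 relative to all genes after median centring. Akap6, the gene of the nuclear-envelope anchor mAKAP, gave 0.57, 0.80 and 0.93 at 48 h (0.76 ± 0.18, adjusted p = 1.3e-07), and its mean was 1.61 from processed signals. Wasf1, an actin regulator that also anchors PKA, stood at -0.73 ± 0.06 at 4 h, or -1.17 relative to all genes after median centring. Of the partners that Akap5 holds, 8 of 10 passed the filter, with 0 higher and 1 lower at 2 h, 0 and 4 at 4 h, and 3 and 3 at both 24 and 48 h. With median centring, relative to all genes, 1 was higher and 3 lower at 2 h, 1 and 4 at 4 h, 2 and 4 at 24 h, and 2 and 3 at 48 h. Cacna1c, the gene of an L-type calcium channel, stood at 1.00 ± 0.13 at 24 h (adjusted p = 4.9e-09 in limma). Of the calcineurin catalytic subunit genes, Ppp3cb stood at -0.41 ± 0.15 at 4 h and at -0.37 ± 0.03 at 48 h. Ppp3ca stood at -0.27 ± 0.06 at 4 h and at 0.40 ± 0.05 at 48 h, the 48 h value being -0.34 relative to all genes after median centring. The third, Ppp3cc, was called at 24 h alone among the time points, at 0.14 ± 0.09, and differences between these genes were not tested.

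Of 15 genes for PKA inhibitors and for families that hold other sensors of cyclic nucleotides, 6 passed the filter. Of these, 1 was higher and 2 lower at 2 h and at 4 h, 2 and 3 at 24 h, and 3 and 2 at 48 h. The pacemaker channel gene Hcn3 stood at -0.62 ± 0.10 at 2 h and Hcn2 at -0.51 ± 0.03 at 4 h. The Hcn2 value was -1.11 relative to all genes after median centring. Rapgef3, which encodes the exchange factor Epac1, a cyclic AMP target apart from PKA, stood at 0.41 ± 0.12 at 48 h (adjusted p = 6.2e-05 in limma). Its size varied with the background correction, from 0.24 without one to 1.79 from processed signals. Of 7 phosphatase inhibitor genes, 4 passed the filter, with none called at 2 h (0 higher, 0 lower), 3 higher at 4 h, 3 lower at 24 h, and 1 higher and 3 lower at 48 h. At 4 h the count with median centring was 2 higher and 1 lower relative to all genes. Ppp1r2, the gene of phosphatase inhibitor 2, stood at 0.55 ± 0.09 at 4 h (0.23 relative to all genes after median centring and -0.35 with centring alone), and Arpp19, whose product PKA phosphorylates, at -0.68 ± 0.08 at 48 h (-1.23 relative to all genes after median centring). Ensa, its close relative, stood at -0.19 ± 0.03 at 24 h, or -0.48 under that scaling.

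Upstream sequence was looked at because cyclic AMP acts on many promoters through the cyclic AMP response element TGACGTCA and its half-site TGACG. RefSeq windows of 250 bases before the start (GRCr8) matched 6 of the 10 members in 7 windows, and 33469 such windows were searched on both strands. The full element stood in 1.59% of all windows and in 0 of the 7. The half-site, which also lies within the full element, stood in 18.2% of all windows and in 1 of the 7, that of Prkaca. The windows of an early rise (Prkar1a), an early fall (Akap5) and the gene whose window holds the half-site (Prkaca) are shown, with half-sites in capitals. A match is a description of letters, and its absence from these windows says nothing about the factor.
Prkar1a, chr10:95120287-95120536, plus strand: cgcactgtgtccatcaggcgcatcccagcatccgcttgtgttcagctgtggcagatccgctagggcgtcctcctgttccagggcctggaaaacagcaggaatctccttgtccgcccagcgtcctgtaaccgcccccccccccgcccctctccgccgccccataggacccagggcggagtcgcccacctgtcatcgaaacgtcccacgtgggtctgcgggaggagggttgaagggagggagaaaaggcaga
Akap5, chr6:100786919-100787168, plus strand: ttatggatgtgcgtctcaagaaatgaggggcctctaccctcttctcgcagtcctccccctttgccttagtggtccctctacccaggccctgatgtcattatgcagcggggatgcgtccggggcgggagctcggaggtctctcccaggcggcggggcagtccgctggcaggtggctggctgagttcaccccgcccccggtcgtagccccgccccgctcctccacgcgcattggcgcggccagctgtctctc
Prkaca, chr19:41083190-41083439, minus strand: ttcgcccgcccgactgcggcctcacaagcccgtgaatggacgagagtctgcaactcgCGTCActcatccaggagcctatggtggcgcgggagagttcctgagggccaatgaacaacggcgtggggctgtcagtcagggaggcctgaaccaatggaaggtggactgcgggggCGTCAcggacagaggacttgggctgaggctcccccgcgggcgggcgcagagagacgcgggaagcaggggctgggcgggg
Both Prkaca half-sites read CGTCA on the printed strand and begin 193 and 79 bases before the start.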

How the data were processed

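Two-colour rat arrays of F11 cells were used. Total RNA had been extracted with Trizol, per the labels' protocols, and per the file headers Feature Extraction 9.5.1.1 read the scans. The deposited files give mean and local background intensity of 45018 spots in green and red, and processed intensity, background-subtracted and dye-normalized. The authors' deposited log2 table ran as red over green, against the direction used here (r of -0.998 or beyond with each array's own ratio). Limma is named, with no version, in the submitters' processing notes.

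Intensities were corrected with normexp (offset 50) and normalized by loess within each array, with control spots at weight 0, in limma 3.58.1 under R 4.3.3, reading files with version 1.17.8 of data.table. Outlier spots were left out, and replicate spots were averaged per probe. A probe passed the filter if well above background in a channel on all 3 arrays of a time point (20419 of 41012), and the brightest probe stood for its gene. Names were updated through RefSeq accessions and symbols, with 20912 probes keeping the file's name. A mean per time point was fitted with lmFit and eBayes to 12 arrays, tested against 0 and between time points, with Benjamini-Hochberg adjustment over 17632 genes. The fit was tested on simulated ratios. The members and lists were chosen with earlier results of these data known. Named pathway genes are, per list, up to 3 called genes with the largest change and 1 sign on all 3 arrays. Alternatives were the background correction, the scaling, the filter, the choice of probe, the deposited table, a replicate block and leaving out arrays.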

Additional observations from a re-analysis of the deposited data

Results flagged for a closer look

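The results given here were picked out because the change at 1 time point differed from that at another by a test of the difference itself (limma, adjusted over all genes). Groups of 3 arrays were not tested for outlying samples. Adcy6 was 0.91 higher at 24 h than at 4 h, 0.23 higher at 48 h than at 24 h, and 0.99 higher late (24 and 48 h) than early (2 and 4 h). The step of 0.23 lost its call in 5 of 6 fits that left out 1 array. Prkar1a was 0.42 higher at 4 h than at 2 h and 0.22 higher at 24 h than at 4 h, and then 0.55 lower at 48 h than at 24 h (-0.55), which left a late minus early difference of 0.16. These are values of its first probe. The second probe had 1.230 at 4 h and 1.155 at 24 h, and a late minus early difference of 0.02. Prkar2b was lower at 24 h than at 4 h (-0.39) and lower late than early (-0.37), on 1 of its 2 probes. Prkar2a was lower late than early (-0.18). Prkar1b was 0.29 higher at 48 h than at 24 h. Prkacb was 0.29 higher at 24 h than at 4 h and 0.27 higher late than early on its brightest probe. The late minus early difference was 0.08 and not called on its other kept probe. Akap5 was lower at 4 h than at 2 h (-0.36) and lower late than early (-0.16), the latter call being lost in 7 of 12 fits that left out 1 array. Array position followed the time point on every slide, and its part in these differences cannot be told apart.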

How the results depend on the processing

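Median centring in place of loess had the widest effect. With it, as fitted and then relative to the median of all genes, the members called were 6 and 7 at 2 h, 7 and 7 at 4 h, 6 and 8 at 24 h, 6 and 9 at 48 h, 0 and 0 for 4 h against 2 h, 2 and 1 for 24 h against 4 h, 1 and 1 for 48 h against 24 h, and 2 and 3 for late against early. The median of all genes lay at -0.58, -0.59, -0.45 and -0.46 as fitted. Over all genes the calls were 13739 and 13525 at 2 h (5051 with loess), 13884 and 13720 at 4 h (8830), 12963 and 12886 at 24 h (9497), 13137 and 13226 at 48 h (10180), 356 and 356 for 4 h against 2 h (2798), 3361 and 2996 for 24 h against 4 h (6900), 277 and 290 for 48 h against 24 h (2645), and 5186 and 5935 for late against early (8966). The share of calls that were higher was 1.60% and 50.6% at 2 h (35.3% with loess), 2.27% and 50.2% at 4 h (39.2%), 4.10% as fitted at 24 h (45.2%), 5.42% as fitted at 48 h (47.0%), 79.5% as fitted for 24 h against 4 h (54.1%), and 70.7% and 38.8% for late against early (51.9%). Counting turns in which the value was called before or after, directions changed as follows with median centring as fitted: Adcy6 to -0.75 at 2 h and -0.84 at 4 h, Prkar1a to -1.20, -0.73, -0.48 and -1.05 over the 4 time points, Prkar1b to -0.051 at 48 h and Prkar2b to -0.67 at 4 h. Relative to all genes they turned for Adcy6 at 4 h (-0.25), Prkar1a at all 4 time points (-0.62, -0.14, -0.024 and -0.58), Prkar1b at 2, 4 and 24 h (0.37, 0.31 and 0.18), Prkar2a at 24 and 48 h (0.25 and 0.23) and Prkaca at 2, 24 and 48 h (0.49, 0.36 and 0.32). With kept probes averaged, Prkar2b turned to -0.12 at 4 h. At 4 h 5 members were called without background correction and 5 from processed signals. The cause of these shifts was not tested.

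Leaving out 1 array gave 3 members called at 2 h and at 4 h, 5 to 6 at 24 h, 5 to 7 at 48 h, 2 for 4 h against 2 h, 3 to 4 for 24 h against 4 h, 2 to 3 for 48 h against 24 h and 5 to 6 for late against early. The 5 at 48 h came without replicate 1, which lost Adcy3, Prkar2a and Prkacb. Over all genes, calls in these fits were 2821 to 4190 at 2 h, 7131 to 7454 at 4 h, 7829 to 8314 at 24 h and 8769 to 9326 at 48 h. Between time points they were 1872 to 2288 for 4 h against 2 h, 5957 to 6264 for 24 h against 4 h, 1880 to 2695 for 48 h against 24 h and 8417 to 8934 for late against early. Of 378 such single values of members, many of them not called in the main fit, 356 kept their status as called or not called. A call was lost for 20 and gained for 2. The replicate number as a block gave 3, 3, 5 and 8 members at the 4 time points, beside 6209, 9689, 10325 and 10918 of all genes. It gave 2, 4, 3 and 6 members between time points, beside 3514, 7704, 3369 and 9685 of all genes. The block changed the status, called or not called, of none of 72 member values. Arrays of the same number correlated at 0.05 to 0.48 and others at -0.40 to 0.31 in their deviations, with 14 of 18 same-number pairs over 0.1, and 8 of 12 arrays correlated best with their own number. Each number was 1 slide and 1 scan session, so the block is also one for slide, while no label ties the cultures of a number to each other. With the deposited values 71 of 72 member values kept their status as called or not called. Dim probes (Adcy3, Adcy8, Prkaca, Prkar1b, Prkar2a and Akap5 in green) limit the sizes.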
